A study of Mus musculus with 6 samples.

Results

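The Ly6 surface antigens described here are Ly6a, Ly6c1, Ly6c2, Ly6e, Ly6g and Ly6i. They were chosen by name, as the rows of the count table whose Ensembl gene ID carries one of these symbols, and all 6 were found among 55359 rows. RNA-seq read counts of the 6 genes were compared between cultures of mouse myeloid-derived suppressor cells (MDSCs) given mitochondrial DNA (mtDNA) and blank cultures. All cultures came from bone marrow of C57BL/6 mice and had grown for 4 days in GM-CSF and IL-6 at 40 ng/ml each, after which a commercial kit was used to isolate the polymorphonuclear fraction (PMN-MDSCs). The mtDNA group (3 libraries) was then transfected with mtDNA at 250 ng/ml by a lipid reagent, and RNA was taken at 12 h. The blank group (3 libraries) was not given mtDNA, and whether it received the reagent is not stated, so the comparison is of DNA plus any effect of the reagent. No group received another DNA. Genotype, age and sex of the mice, the purity of the cells and whether the 3 libraries of a group came from separate cultures are not stated. The p-values therefore set group differences against the scatter of these libraries, and that scatter may be technical.

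Ly6 proteins are small, cysteine-rich proteins that are held on the outer face of the cell membrane by a glycosylphosphatidylinositol (GPI) lipid anchor. In mouse myeloid cells they serve as lineage labels: Ly6G marks neutrophils and PMN-MDSCs, and high Ly6C marks inflammatory monocytes and monocytic MDSCs. Ly6A, also called Sca-1, is a marker of haematopoietic stem cells that many cell types also make in response to interferon, and Ly6E is an interferon-induced protein that alters the entry of several viruses. The mouse genes lie together in a cluster of close relatives, so part of their sequence is shared.

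Promoter sequences in the RefSeq table used here (build GRCm38.p6, 250 bases before to 50 after the start of transcription) were found for 3 of the 6 genes, Ly6c1, Ly6c2 and Ly6g. They are shown because these relatives differ by orders of magnitude in reads, as given further on, while their upstream sequences align over most of their length. The most upstream start of each gene was taken, and capitals mark GAGGAAGT, letters that match sites of the myeloid transcription factor PU.1, on either strand. The windows lie at chr15:75048788-75049087 (minus strand) for Ly6c1, chr15:75111922-75112221 (minus strand) for Ly6c2 and chr15:75155011-75155310 (plus strand) for Ly6g.
Ly6c1: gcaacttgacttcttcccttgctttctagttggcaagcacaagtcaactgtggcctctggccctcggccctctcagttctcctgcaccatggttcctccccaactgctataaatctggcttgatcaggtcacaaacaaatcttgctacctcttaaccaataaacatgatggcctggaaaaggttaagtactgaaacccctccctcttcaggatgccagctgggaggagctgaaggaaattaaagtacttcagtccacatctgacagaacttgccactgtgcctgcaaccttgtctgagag
Ly6c2: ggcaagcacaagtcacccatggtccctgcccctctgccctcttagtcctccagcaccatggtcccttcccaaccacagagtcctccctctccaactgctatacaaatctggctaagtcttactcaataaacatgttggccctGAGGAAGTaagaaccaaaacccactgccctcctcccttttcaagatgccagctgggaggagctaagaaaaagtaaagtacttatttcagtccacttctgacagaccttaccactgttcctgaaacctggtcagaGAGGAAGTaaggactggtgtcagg
Ly6g: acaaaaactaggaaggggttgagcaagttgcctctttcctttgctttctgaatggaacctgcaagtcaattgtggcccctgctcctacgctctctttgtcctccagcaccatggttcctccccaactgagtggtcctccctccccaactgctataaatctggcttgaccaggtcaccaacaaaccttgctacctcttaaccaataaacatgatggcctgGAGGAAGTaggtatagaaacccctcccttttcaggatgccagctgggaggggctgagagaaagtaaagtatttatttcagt

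In local alignments, the Ly6c1 window matched that of Ly6c2 at 73.8% of 282 aligned positions and that of Ly6g at 77.1% of 271. GAGGAAGT was found 2 times in the Ly6c2 window, 1 time in that of Ly6g and 0 times in that of Ly6c1. Of 27025 promoters of this length in the table, 3.25% held it. Of the 2 Ly6c2 matches, 1 lay after the start of transcription, near the end of the window. The Ly6g and Ly6c1 windows stop before the aligned site is complete, so they could not show this match. Neither of the interferon-linked motifs searched, the interferon-stimulated response element (GAAA, any 2 bases, GAAA) and the GAS element (TTCNNNGAA), was found in any of the 3 windows on either strand. They were found in 3.49% and 8.42% of all promoters. Letters for the transcription factor C/EBP (TTNNGNAA) were found 2 times each in the Ly6c2 and Ly6g windows and 0 times in that of Ly6c1. Those for AP-1 (TGANTCA) were found in none of the 3 windows. Of all promoters, 40.8% and 7.92% held them. A match or its absence describes only these letters in these windows, and a link to read levels was not tested.

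The coding sequences show how reads of the close relatives can be told apart. The first 75 coding bases, 1 read length, are given for Ly6c2 and 4 relatives from the GENCODE M21 transcripts, with bases that differ from Ly6c2 in capitals.
Ly6c2: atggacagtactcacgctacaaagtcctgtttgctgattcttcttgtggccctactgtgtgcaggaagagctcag
Ly6c1: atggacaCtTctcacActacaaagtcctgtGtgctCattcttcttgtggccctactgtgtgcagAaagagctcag
Ly6a: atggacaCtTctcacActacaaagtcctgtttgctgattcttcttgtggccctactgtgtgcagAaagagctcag
Ly6i: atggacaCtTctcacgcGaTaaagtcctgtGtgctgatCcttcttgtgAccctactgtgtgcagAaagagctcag
Ly6g: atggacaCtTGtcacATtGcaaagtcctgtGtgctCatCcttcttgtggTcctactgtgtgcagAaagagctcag

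In this stretch Ly6c1 differed from Ly6c2 at 6 bases, Ly6a at 4, Ly6i at 8 and Ly6g at 11. Over the whole coding sequence Ly6c1 and Ly6c2 were 97.7% identical and shared a run of 188 bases without a difference, and Ly6a and Ly6i were 86.3% identical. Ly6e was the most distant relative, with 47.8% to 52.2% identity to the other 5 genes. Of the 75-base windows of the longest coding transcript, 23.2% of those of Ly6c1 and 21.9% of those of Ly6c2 also occurred in another gene. The share was 2.38% for Ly6a, 0.555% for Ly6i and 0% for Ly6e and Ly6g. Where reads that map to several places are left out of the counts, reads from the shared windows of Ly6c1 and Ly6c2 are lost, and the counts of these 2 genes are therefore uncertain.

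The libraries held 4018360 to 4911103 counted reads, and levels are given as CPM (reads scaled to a common library size, TMM-adjusted), in which 1 read was worth about 0.204 to 0.249 before adjustment. Of 11190 genes tested with edgeR, 1327 (11.9%) rose and 669 (5.98%) fell at an adjusted p under 0.05, together 17.8%. Over these genes the log2 fold change had a median of -0.01, and of -0.13 when libraries were scaled by their totals alone. The labelled cell type was checked against its markers on the scale of CPM per kilobase of merged exons. Ly6g, the gene behind the defining antigen of PMN-MDSCs, stood at 5.17 ± 1.01 CPM per kilobase in blank libraries (SD, n = 3) and ranked 6602 among 11179 genes. The annotation used for counting is not given, so how fully its gene model covers Ly6g is not known here. Of other neutrophil genes, Retnlg stood at 5.82 ± 0.669 CPM per kilobase (rank 6226), Cxcr2 at 14.2 ± 1.21 (rank 3366) and Csf3r at 78.8 ± 3.91 (rank 556). S100a8 (2446 ± 94.1 CPM per kilobase), Mmp8 (1050 ± 7.20) and Ngp (667 ± 7.14), which encode neutrophil granule or cytosolic proteins, were high, and so were Csf1r (247 ± 2.77) and Adgre1 (155 ± 5.56), which encode a receptor and a surface antigen of monocytes and macrophages. Markers of 1 cell type were uneven, and the monocyte genes Cx3cr1 (0.519 ± 0.144) and Ace (0.765 ± 0.344) were low. The dendritic cell gene H2-Ab1 stood at 370 ± 15.3 CPM per kilobase. These genes are examples from longer lists and do not settle which cells were present. In bulk RNA, fewer cells of a type and less RNA per cell cannot be told apart.

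Of the 6 Ly6 genes, Ly6a, Ly6i, Ly6e and Ly6c2 rose after mtDNA, against a background of 11.9% of tested genes called higher. Ly6g did not pass the test, and Ly6c1 had too few reads to be tested. Ly6a and Ly6i rose by at least 2-fold, as did 2.51% of all tested genes. For Ly6a, Ly6i, Ly6e and Ly6c2 every mtDNA library lay above every blank library in CPM, which held for 17.9% of tested genes, and 15.6% had every mtDNA library below every blank library. The 6 genes together made up 0.180% ± 0.00933 of counted reads in blank libraries and 0.351% ± 0.0340 in mtDNA libraries (SD, n = 3 per group). This difference had an exact two-sided permutation p of 0.1, the smallest that 3 against 3 libraries can give.

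**Figure D1:**
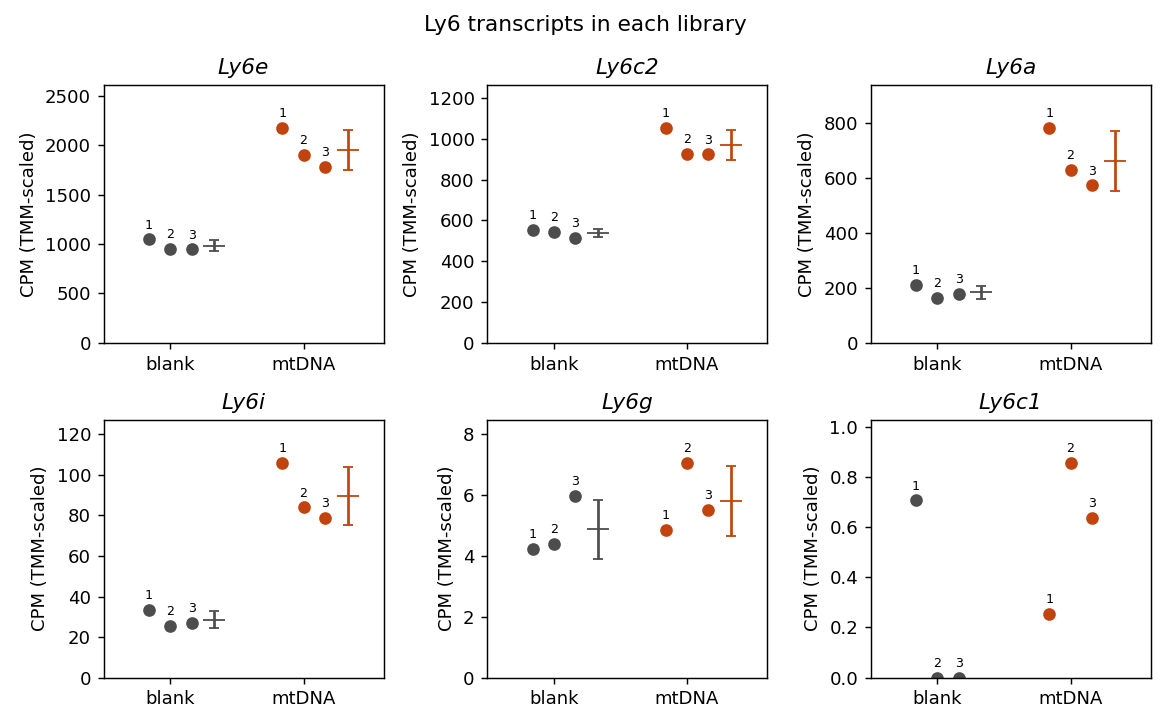
Levels in CPM (TMM-scaled, linear axes from 0) of the 6 Ly6 genes in each library, with replicate numbers beside the points and, for the 5 tested genes, the mean and SD of each group (n = 3) at the right of its points. In the panels of Ly6e, Ly6c2, Ly6a and Ly6i the mtDNA points lie above the blank points, whereas those of Ly6g overlap and Ly6c1 stays under 1 CPM.

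Ly6g (ENSMUSG00000022582), the granulocyte antigen gene, was thinly read in both groups. It had 18, 22 and 25 reads in blank libraries 1 to 3 and 19, 33 and 26 in mtDNA libraries 1 to 3. The groups overlapped. On the TMM-scaled CPM scale the means were 4.87 ± 0.954 and 5.81 ± 1.14 (SD, n = 3). The log2 fold change was 0.27 ± 0.25 (SE), with a 95% interval of -0.24 to 0.79 (edgeR's quasi-likelihood test, adjusted p = 0.506). The 65 and 78 reads behind the group sums have 95% Poisson intervals of 50.2 to 82.8 and 61.7 to 97.3, which cover counting error only. The log2 fold change of Ly6c2 (0.85) lies above the interval of the Ly6g fold change. Its own 95% interval of 0.73 to 0.96 overlaps that of Ly6g, so the intervals do not set the 2 genes apart.

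Ly6c2 (ENSMUSG00000022584), 1 of the 2 genes that encode the monocyte antigen Ly6C, had 20038 reads over the 6 libraries. Blank libraries 1 to 3 held 554, 546 and 514 CPM, and mtDNA libraries 1 to 3 held 1053, 927 and 924 CPM. The groups did not overlap, and mtDNA 1 was the highest library. Ly6c2 rose 1.80-fold, from 538 ± 21.0 to 968 ± 73.8 CPM (log2 fold change 0.85 ± 0.054 SE, edgeR adjusted p = 4.89e-11).

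Ly6c1 (ENSMUSG00000079018), its near-identical neighbour, had 3, 0 and 0 reads in blank libraries 1 to 3 and 1, 4 and 3 in mtDNA libraries 1 to 3. Its 11 reads over 6 libraries compare with 20038 for Ly6c2, although 591 of 770 read-length windows of Ly6c1 and 584 of 748 of Ly6c2 occur in no other gene. The 3 blank reads and 8 mtDNA reads have 95% Poisson intervals of 0.619 to 8.77 and 3.45 to 15.8, and the count filter removed the gene. At this depth a library with 0 reads allows up to 3 reads, or 0.625 to 0.747 CPM of library totals. The log2 ratio of Ly6c2 to Ly6c1 reads overlapped between groups (exact two-sided permutation p = 0.5), and it rests on these few Ly6c1 reads.

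Ly6a (ENSMUSG00000075602), which encodes Sca-1, showed the largest fold change of the 5 tested Ly6 genes. It stood at 210, 163 and 177 CPM in blank libraries 1 to 3 and at 780, 629 and 572 CPM in mtDNA libraries 1 to 3. Library 1 was the highest of each group, and the lowest mtDNA library stood at 2.72 times the highest blank library. Ly6a rose 3.60-fold, from 183 ± 24.5 to 660 ± 108 CPM (log2 1.85 ± 0.093 SE, edgeR adjusted p = 6.79e-13), and 1.14% of tested genes had a larger log2 fold change. With a robust estimate of the dispersion its adjusted p was 0.00296.

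Ly6i (ENSMUSG00000022586), the neighbour of Ly6a in the cluster and its closest relative in coding sequence among the 6, rose by a similar fold from a lower level. It stood at 33.4, 25.6 and 27.0 CPM in blank libraries 1 to 3 and at 106, 84.0 and 78.7 CPM in mtDNA libraries 1 to 3. Library 1 was again the highest of each group. The rise was 3.11-fold (28.7 ± 4.16 to 89.6 ± 14.5 CPM, log2 1.64 ± 0.11 SE, edgeR adjusted p = 1.9e-10).

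Ly6e (ENSMUSG00000022587), the interferon-induced gene with effects on virus entry, had the most reads of the 6. It stood at 1047, 954 and 946 CPM in blank libraries 1 to 3 and at 2175, 1904 and 1778 CPM in mtDNA libraries 1 to 3. The groups did not overlap, and library 1 was once more the highest of each. Ly6e rose 1.99-fold (982 ± 56.6 to 1952 ± 203 CPM, log2 0.99 ± 0.061 SE, edgeR adjusted p = 2.08e-11). It supplied 56.5% of the reads of the 6 genes in blank libraries and 53.1% in mtDNA libraries (means), while the share of Ly6a went from 10.5% to 17.9% and that of Ly6c2 from 31.0% to 26.4%.

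Levels of different genes can be compared only per length. Per kilobase of merged exons, blank libraries held 260 ± 15.0 CPM of Ly6e, 196 ± 7.68 of Ly6c2, 152 ± 20.3 of Ly6a, 24.8 ± 3.60 of Ly6i, 5.17 ± 1.01 of Ly6g and 0.140 ± 0.243 of Ly6c1. No library of 1 gene reached the range of the next in this order. In mtDNA libraries Ly6a, at 548 ± 89.5 CPM per kilobase, and Ly6e, at 516 ± 53.7, overlapped, and Ly6c2 followed at 353 ± 26.9. The place of Ly6c2 depended on the length used. Its merged exons span 2740 bases against 822 for its longest coding transcript, and per kilobase of that transcript it came first in blank libraries, at 654 ± 25.6 CPM against 431 ± 24.8 for Ly6e.

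Ratios between 2 genes within a library do not depend on how libraries are scaled to each other. The log2 ratio of Ly6c2 to Ly6g reads, which sets the gene of the monocytic antigen against that of the granulocytic one, was 6.99, 6.92 and 6.40 in blank libraries 1 to 3. It was 7.72, 7.01 and 7.36 in mtDNA libraries 1 to 3. The mean was higher by 0.60 after mtDNA, and the groups were barely apart, with 6.99 in blank 1 and 7.01 in mtDNA 2 (exact two-sided permutation p = 0.1, the smallest possible, and 0.11 adjusted over 11 ratios). Among 11189 genes set against Ly6g in this way, 3.03% had every mtDNA library above every blank library. Within groups Ly6g varied more than Ly6c2 on the log2 scale, and the difference was 0.41 without blank 3 and 0.42 without mtDNA 1.

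The genes that rose did so by unequal amounts. The log2 ratio of Ly6a to Ly6e reads went from -2.43 ± 0.118 to -1.57 ± 0.0824, and that of Ly6a to Ly6c2 from -1.56 ± 0.176 to -0.56 ± 0.130 (SD, n = 3). Ly6a and Ly6i stayed closer to each other, with a log2 ratio of 2.67 ± 0.0318 in blank and 2.88 ± 0.0222 in mtDNA libraries. That of Ly6c2 to Ly6e was -0.87 ± 0.0582 and -1.01 ± 0.0564. In each of these 4 ratios the groups did not overlap, with an exact two-sided permutation p of 0.1, the smallest that the design allows. Adjusted over 11 ratios it was 0.11.

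**Figure D2:**
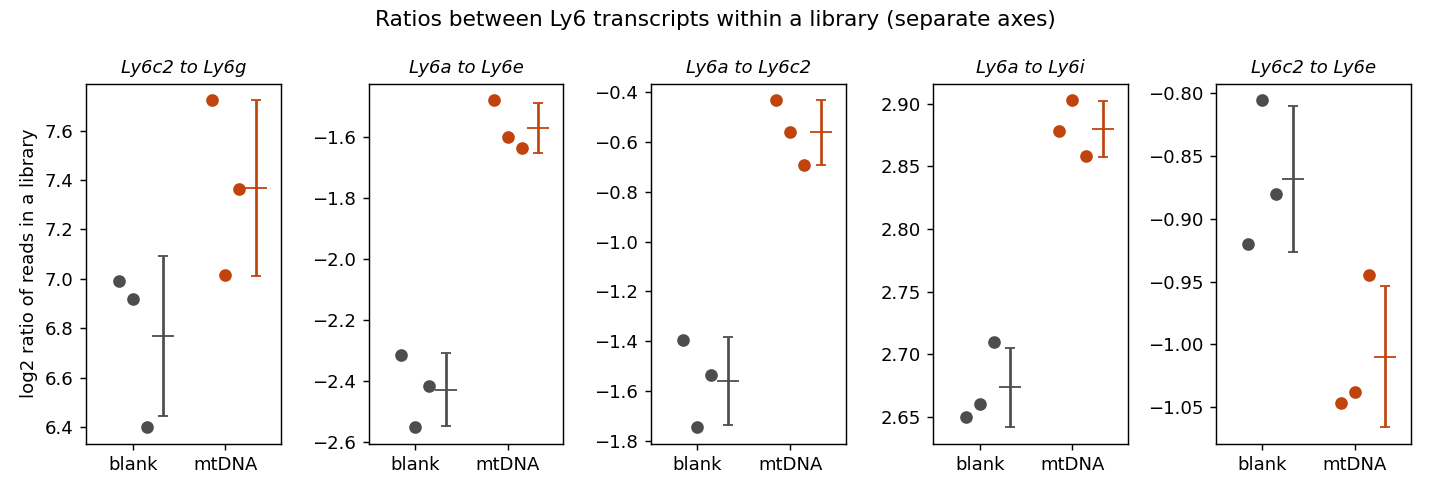
Log2 ratios of reads between pairs of Ly6 genes within each library, on separate linear axes that do not start at 0, with 3 blank and 3 mtDNA libraries per panel and the mean and SD of each group at the right of its points. The groups nearly touch in the Ly6c2 to Ly6g panel (6.99 in blank 1 and 7.01 in mtDNA 2) and in the Ly6c2 to Ly6e panel (-0.92 in blank 1 and -0.94 in mtDNA 3), and are far apart in the Ly6a to Ly6c2 panel.

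Within a group, Ly6a and Ly6i varied in the same order as Irf7, which encodes a transcription factor of the interferon response. Among blank libraries, Irf7 stood at 70.9, 22.0 and 51.1 CPM in libraries 1 to 3. Ly6a and Ly6i were likewise highest in blank 1 and lowest in blank 2. Ly6c2 differed from its blank mean by at most 0.065 on the log2 scale. Ly6g had its highest blank value in blank 3. In the mtDNA group library 1 was the highest for Irf7 (731 CPM), Ly6a, Ly6i, Ly6e and Ly6c2, and the lowest for Ly6g. With 3 libraries per group these orders are descriptions. Without mtDNA 1 the log2 fold change of Ly6a was 1.71, and without blank 1 it was 1.96.

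The Ly6 cluster was read in part only. In the order of the GENCODE M21 annotation the genes run Ly6e, Ly6i, Ly6a, Ly6c1, Ly6c2, Ly6a2 and Ly6g, with Ly6m before them and BC025446, Ly6f and Ly6l after them. BC025446, Ly6f and Ly6l had 0 reads in all 6 libraries, and Ly6m had 13 reads in blank and 23 in mtDNA libraries, 16 of the latter in mtDNA 3. Ly6a2, which that annotation lists as a pseudogene under the name I830127L07Rik, was the only other gene of the cluster that passed the count filter. Per kilobase of merged exons it held 226 ± 1.40 CPM in blank libraries, above the 152 ± 20.3 of Ly6a (SD, n = 3). Before division by length it stood at 181, 180 and 179 CPM in blank libraries 1 to 3 and at 354, 299 and 265 CPM in mtDNA libraries 1 to 3, and it rose 1.69-fold (log2 0.76 ± 0.076 SE, edgeR adjusted p = 8.68e-08). No read-length window of the longest coding transcript of the 6 genes occurred in its transcripts. Ly6c1, with 11 reads, lies between Ly6a and Ly6c2, which had 11138 and 20038.

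**Figure D3:**
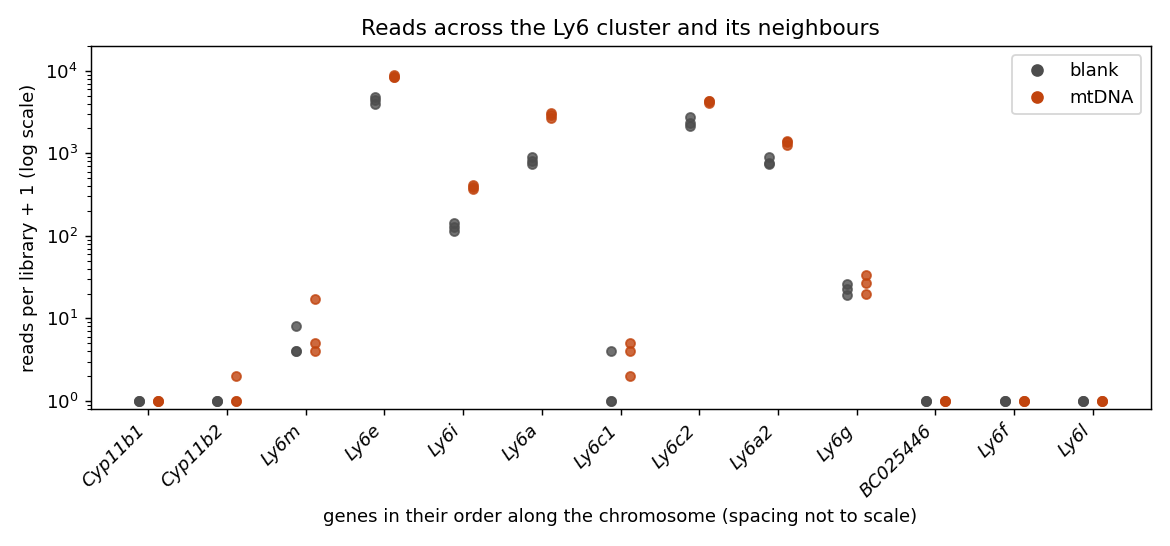
Reads per library plus 1, on a log axis, of the genes from Cyp11b1 to Ly6l in their order along the chromosome, with 3 blank and 3 mtDNA libraries as points (spacing of genes not to scale). Ly6e, Ly6i, Ly6a, Ly6c2 and Ly6a2 hold more than 100 reads in every library, and Ly6c1, between Ly6a and Ly6c2, holds at most 4.

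Of 39 matched genes of the wider Ly6 and urokinase receptor family, 23 had no read in any library and 7 were tested. Of these 7, 3 rose (42.9%, beside 11.9% of all tested genes) and 0 fell. The median log2 fold change of the 7 was 0.23, beside -0.01 for all tested genes. Those that rose were Ly6a2, Plaur, which encodes the urokinase receptor (551 ± 4.12 to 641 ± 21.2 CPM, log2 0.22 ± 0.047 SE, edgeR adjusted p = 0.00189), and Cd177, which encodes a neutrophil surface antigen (114 ± 2.92 to 132 ± 2.45 CPM, log2 0.21 ± 0.059 SE, edgeR adjusted p = 0.0182). With libraries scaled by their totals, Ly6a2 alone kept its call, and the adjusted p of Plaur was 0.107. The list median was then 0.11, beside -0.13 for all tested genes.

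Genes that build the GPI anchor, on which all Ly6 surface proteins depend, did not pass the test. Of 24 tested genes of anchor synthesis and transfer, 0 rose and 0 fell in edgeR at the adjusted threshold, with 2 at an unadjusted p under 0.05, and DESeq2 and limma-voom called 0. The smallest p was that of Pigh (log2 0.59 ± 0.22 SE, edgeR adjusted p = 0.0768), which passed without mtDNA 2 (0.0213). The list median was 0.03 and turned to -0.08 under library totals, beside -0.01 and -0.13 for all tested genes. Of 7 tested genes that remodel or carry anchored proteins, 2 rose (28.6%, beside 11.9% of all tested genes) and 0 fell. Pgap2, which acts in remodelling of the anchor's lipid, rose 1.61-fold (46.5 ± 2.18 to 75.1 ± 2.47 CPM, log2 0.69 ± 0.077 SE, edgeR adjusted p = 4.56e-07). Mppe1, which removes an ethanolamine phosphate from the anchor, rose by log2 0.31 ± 0.10 (SE, edgeR adjusted p = 0.039). It was not called by DESeq2 (adjusted p = 0.181), under library totals (0.171), upper-quartile factors (0.108) or no filter (0.0615), or without blank 1, blank 3, mtDNA 1 or mtDNA 3 (0.0794 to 0.143).

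Other surface genes known to respond to interferon frame the fold changes of the Ly6 genes. Of 20 tested, 17 rose (85%, beside 11.9% of all tested genes) and 0 fell, with a median log2 fold change of 0.95. Fcgr1, the high-affinity receptor for IgG, rose by log2 2.54 ± 0.10, and Ifitm3, a membrane protein that blocks virus entry, by 1.76 ± 0.067 (SE, edgeR adjusted p = 2.78e-14 and 1.21e-14). The rise of Ly6a lay between those of Ifitm3 and Fcgr1, and those of Ly6e and Ly6c2 near that of B2m, the light chain of MHC class I (log2 0.87 ± 0.057 SE). These lists were chosen with earlier results in view, so their counts are descriptions.

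**Figure D4:**
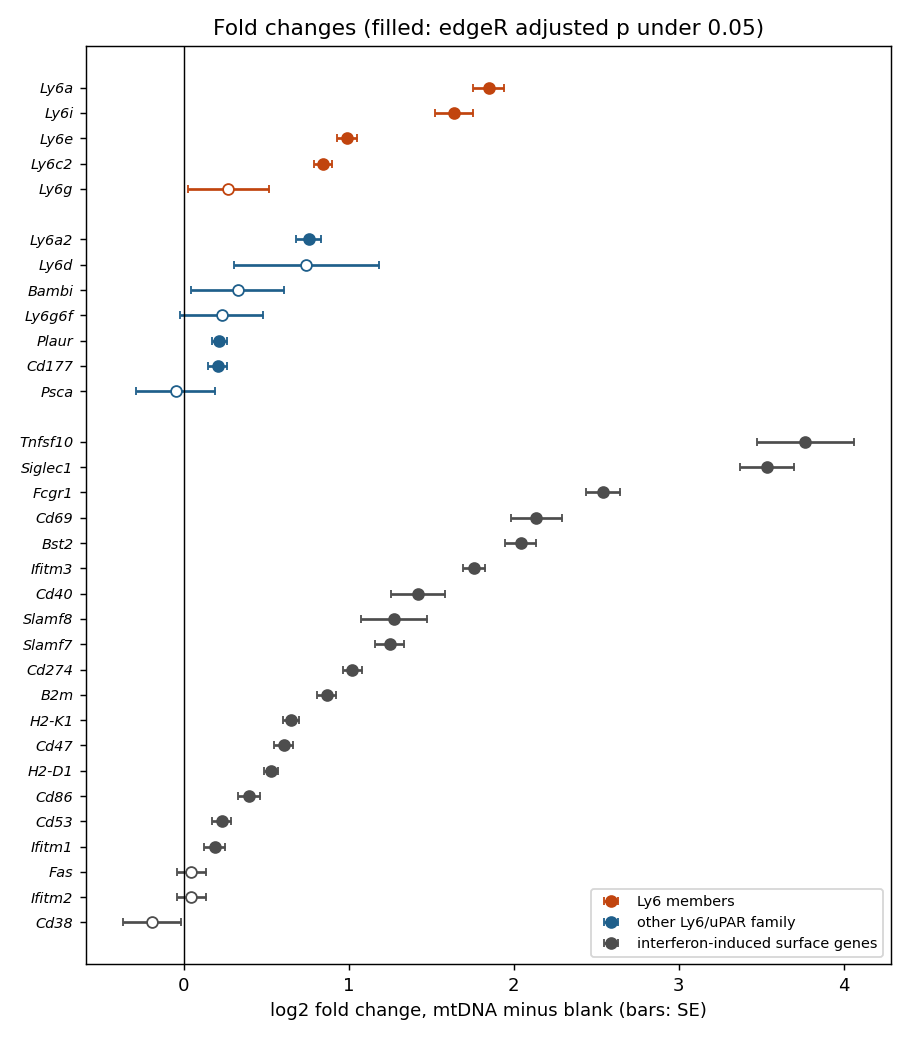
Log2 fold changes (mtDNA minus blank, bars show SE, n = 3 libraries per group) of the 5 tested Ly6 genes, the 7 tested genes of the wider family and the 20 interferon-induced surface genes, with filled points for an edgeR adjusted p under 0.05. Ly6a at 1.85 and Ly6i at 1.64 lie well above Ly6e at 0.99 and Ly6c2 at 0.85, and Ly6g is open at 0.27.

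The genes with the most similar profiles over the 6 libraries were found by the root-mean-square difference of gene-centred log2 CPM. Those nearest to Ly6a were Ifi35, Uba7 and Nt5c3 (differences of 0.0586, 0.0809 and 0.0815). For Ly6i they were Parp11, Parp10 and Lgals9 (0.0647, 0.0671 and 0.0711), for Ly6e Tapbpl, AA467197 and Stard3 (0.0456, 0.0490 and 0.0602) and for Ly6c2 B2m, Tmem106a and Shisa5 (0.0199, 0.0374 and 0.0449). The profile of B2m was thus closer to that of Ly6c2 than any other gene was to any of the 5 tested Ly6 genes. For Ly6g they were 2010315B03Rik, Nbn and Cdh23 (0.0580 to 0.0701), none of which passed the test (edgeR adjusted p of 0.322 to 0.364). Genes were matched over the same libraries, so a similar fold change, called or not, is part of the match and no separate result.

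Markers of the cell types that carry Ly6 antigens were read against the 11.9% of all tested genes that rose. Of 30 tested neutrophil and PMN-MDSC genes 4 rose (13.3%, near that share) and 1 fell, with summed levels of 12758 to 13314 CPM in blank and 13400 to 14263 CPM in mtDNA libraries. These sums are on the TMM scale. The median log2 fold change of the list was 0.05, and -0.07 under library totals, so its sign depended on the scaling. The called genes included Clec4e (log2 0.21 ± 0.054 SE, edgeR adjusted p = 0.00873) and Cd24a, which fell by 0.31 on the log2 scale (adjusted p = 0.000481). Itgam, the CD11b chain carried by both subsets, had log2 0.08 ± 0.053 (SE, adjusted p = 0.309). Of 25 monocyte and macrophage genes 10 rose (40%) and 2 fell, with a median log2 fold change of 0.16, or 0.04 under library totals. DESeq2 called 7 genes of this list in either direction, and omission of a library left 6 to 9, against 12 in the main fit. Summed levels were 15515 to 16393 CPM in blank and 16766 to 17852 CPM in mtDNA libraries. Lyz2 alone made up most of these sums, at 7853 ± 312 CPM per kilobase of merged exons in blank libraries (SD, n = 3), rank 1 of all genes. Ms4a6c (log2 2.27 ± 0.088 SE) and Fcgr1 had the smallest p-values among those that rose, and Fn1 and Spn fell by 0.49 and 0.20 (adjusted p = 0.000233 and 0.0188). Csf1r had log2 0.12 ± 0.042 (SE, edgeR adjusted p = 0.0442) and lost its call under median-ratio factors (0.0509), upper-quartile factors (0.445), library totals (0.938), no filter (0.0762) and DESeq2 (0.058), and on omission of any single library (0.0537 to 0.137). Clec4e was not called under upper-quartile factors (0.0838) or library totals (0.218), and Spn not by DESeq2 (0.0829) or without blank 2, blank 3 or mtDNA 3 (0.0576 to 0.086). The part of these markers in the changes of the Ly6 genes was not tested.

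Ly6a also marks stem and progenitor cells, and genes of such cells did not move together. Of 11 tested, 2 rose (Cd48, log2 0.37 ± 0.074 SE, and Cdk6, 0.22 ± 0.062 SE, edgeR adjusted p = 0.000782 and 0.0183) and Kit, the receptor of stem cell factor, fell (log2 -0.43 ± 0.11 SE, edgeR adjusted p = 0.00754). Their summed level was 434 to 464 CPM in blank and 477 to 490 CPM in mtDNA libraries. Of the 14 listed genes 11 passed the count filter, and levels in the list were uneven. Mecom and Hlf did not pass, with 2 and 32 reads over all 6 libraries. Cd48 and Procr held 62.5 ± 3.95 and 52.8 ± 6.35 CPM per kilobase in blank libraries (SD, n = 3). Of 11 dendritic cell genes 2 rose (Bst2 and Dpp4, log2 2.04 ± 0.092 and 0.62 ± 0.18 SE), and of 7 lymphocyte genes 1 rose (Il7r, log2 0.45 ± 0.061 SE). Bst2 is also in the list of interferon-induced surface genes. Among basophil, mast cell and eosinophil genes 1 of 9 rose (Mcpt8, log2 0.27 ± 0.072 SE), among stroma and endothelium genes 1 of 4 (Kdr, log2 2.40 ± 0.12 SE) and among erythroid and megakaryocyte genes 0 of 3 (Pf4, log2 0.06 ± 0.062 SE). None of the genes tested in these 6 lists other than Kit fell. With 11.9% of all tested genes called higher, 0 to 2 risen genes in lists this short are no result about these cell types. DESeq2 did not call Cdk6, Kit, Dpp4 or Mcpt8 (adjusted p of 0.0589 to 0.103). Cdk6 also lost its call under upper-quartile factors and library totals and without blank 2 or mtDNA 3 (0.087 to 0.263), Dpp4 without blank 1, blank 2 or mtDNA 3 (0.0532 to 0.106), and Mcpt8 under both scalings and without mtDNA 2 (0.0572 to 0.123).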

How the data were processed

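Per the labels, poly(A) RNA was made into directional libraries, 3 labelled blank and 3 labelled mtDNA, and read from 1 end over 75 bases. The authors deposited whole-number read counts per gene in 1 table. The submitters' processing notes list STAR 2.7.10a, GRCm39, FastQC and DESeq2. Which annotation release and strand setting were used is not given in the sources used here. Symbols came from GENCODE M21, and transcripts, gene order and lengths from the same release (GRCm38), so no coordinates are given except those of the RefSeq promoter windows. Genes named in other lists under newer symbols were matched through RefSeq synonyms.

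Groups came from the treatment label, and replicate numbers follow accession order. edgeR 4.0.16 (R 4.3.3) was run on all genes with its default filter, TMM factors of 0.947 to 1.05 and a two-sided quasi-likelihood test. P-values were adjusted by Benjamini-Hochberg over 11190 genes with a threshold of 0.05. The standard error is the fold change over the root of the F statistic. In simulated counts for these 11190 genes 30% of the genes changed by 1.2-fold were recovered, 84% of those changed by 1.5-fold, 94% by 2-fold and 96% by 4-fold, and 3.18% of calls were false. The simulation changed 50 randomly drawn genes per fold, as many up as down, and took the dispersion from its trend without spread between genes. The data held more calls, with more rises than falls, so these rates may not hold for them or for thinly read genes. Intervals of fold changes use the t distribution with the test's degrees of freedom. Ratios used an offset of 0.5 reads. Shared windows, alignments and motifs were computed in Python 3.11.15.

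The genes, the 12 lists and the rule for named genes were chosen with earlier results of these data known. The rule took all 6 Ly6 genes, up to 2 risen and 2 fallen genes of each list by p, the 3 most similar profiles of each tested Ly6 gene, and Csf1r, Itgam and Irf7. Some genes that the rule took are not reported here. Ly6m, Cd177, B2m, Retnlg, Cxcr2, Csf3r, S100a8, Mmp8, Ngp, Adgre1, Cx3cr1, Ace, H2-Ab1, Lyz2, Procr, Mecom and Hlf were named after their values were seen, and 9 of the 11 ratios were added then. Alternatives covered scaling, filters, DESeq2 1.42.0, limma-voom (limma 3.58.1), robust dispersion, neighbouring title numbers as a block, lengths, offsets and omission of each library.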

Additional observations from a re-analysis of the deposited data

How the results depend on the processing

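The calls of Ly6a, Ly6i, Ly6e and Ly6c2 and the lack of one for Ly6g held under every setting that was run, with log2 fold changes of 1.71 to 1.96, 1.51 to 1.76, 0.87 to 1.05, 0.73 to 0.88 and 0.10 to 0.43. Among all genes, library totals gave 861 rises and 2356 falls, upper-quartile factors gave 1504 falls and DESeq2 gave 224. Omission of a library left 1097 to 1191 rises and 410 to 522 falls. Calls in the lists, counted here in either direction, moved with the scaling as well. Under library totals most calls among all genes were falls, so the list counts under that scaling are not counts of rises. Under library totals the counts were 1 for the wider Ly6 family, 2 for anchor synthesis, 2 for stroma, 1 for erythroid genes and 0 for basophils to eosinophils. Under upper-quartile factors they were 1 for anchor remodelling, 2 for stroma and 0 for basophils to eosinophils. DESeq2 called 1 gene of anchor remodelling, 7 of monocytes, 1 of dendritic cells, 1 of stem cells and 0 of basophils to eosinophils, and 1 gene of anchor remodelling remained without a filter. Omission of a library gave 0 to 1 calls for anchor synthesis, 1 to 3 for remodelling, 3 to 6 for neutrophils, 6 to 9 for monocytes, 1 to 2 for dendritic cells and 0 to 1 for basophils to eosinophils. With neighbouring title numbers as a replicate block the last list had 2 calls. The labels give no replicate numbers (those used here follow accession order), so this block is no pairing stated by the study. The sign turned for Itgam (-0.035) under library totals and for Pf4 (-0.014 with upper-quartile factors and -0.057 with library totals). The cause was not tested. The Ly6c2 to Ly6g difference ranged from 0.41 to 0.77 on omission of a library, and the Ly6c2 to Ly6c1 difference from -1.70 to -0.19. No value without an offset exists for the latter, because 2 blank libraries had 0 Ly6c1 reads. Low read numbers limit Ly6g and Ly6c1, and the unstated counting annotation limits what the Ly6g level means.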
